A study of Mus musculus with 11 samples.

Results

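The muscle microRNAs (miRNAs) mmu-miR-1a-3p, mmu-miR-133a-3p and mmu-miR-133b-3p, written below without the prefix, were followed through 11 Agilent mouse miRNA arrays hybridised with RNA of sorted cardiac macrophages. They were chosen by name, as the miRNAs best known from cardiomyocytes, and are 3 of the 1247 miRNAs on the array, of which 369 were tested. All cells were GFP-positive and came from hearts of Cx3cr1GFP/+ mice 2 to 3 months old, which carry GFP in 1 copy of the fractalkine receptor gene. Ly6Clow/CX3CR1high macrophages came from unoperated hearts (called day 0, 2 arrays) and, after cryoinjury, a freezing lesion that serves as a model of myocardial infarction, from day 7 (3 arrays) and day 30 (3 arrays). Ly6Chigh/CX3CR1low macrophages were taken 3 days after cryoinjury (3 arrays). In comparisons with day 3, stage and sorted population therefore cannot be told apart, nor can surgery and injury in those with day 0.

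miR-1 and miR-133 are made together from shared transcripts in cardiac and skeletal muscle, where serum response factor and MEF2 drive them. miR-1 favours muscle differentiation and represses, among others, the histone deacetylase HDAC4, while miR-133 restrains serum response factor and cell-cycle genes. miR-133b comes from another locus, shared with miR-206 and used mainly in skeletal muscle, and its mature form is nearly identical to miR-133a, so that probes for the pair may bind both. In a sorted leukocyte, these miRNAs serve as a gauge of RNA of muscle origin. In RNA of bulk sorted cells, fewer cells of a type and less RNA per cell cannot be told apart.

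Of the members, 1 was matched in RefSeq's miRNA table (build GRCm38.p6), namely miR-133b-3p, from chr1:20682834-20682855 on the plus strand. It is printed with both arms of miR-208a, a miRNA of the cardiac myosin gene Myh6, since 1 of these arms was detected in the macrophages. The 5p arm lies at chr14:54949107-54949128 and the 3p arm at chr14:54949072-54949093, both on the minus strand. Capitals mark the seed, bases 2 to 8 counted from the 5′ end, by which a miRNA pairs with its targets.
miR-133b-3p: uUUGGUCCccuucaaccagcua
miR-208a-5p: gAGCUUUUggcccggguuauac
miR-208a-3p: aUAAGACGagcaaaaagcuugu

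The arrays differed in brightness, and the members were read against it. The 75th percentile, taken over the 126 miRNAs that every array detected, ran in scanner units from 55.7 to 163 in the day 0 group and from 114 to 323 in the day 7 group. The day 3 group reached 805 to 1607 and the day 30 group 1453 to 2304. It spanned 41.4-fold in all, against 2.16-fold for the mean of the 4 dmr control features detected on all arrays. For most miRNAs, replicates 2 and 3 of day 30 lay closer together than the scanner's own error. Their median squared difference came to 0.210 of the value that error predicts, where the remaining pairs of replicates had 3.03 to 39.1. Their mean squared difference was 1.65 times the expected value, against 2.82 to 44.4. The pair was averaged into 1 sample, leaving 10.

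miR-133a-3p and miR-133b-3p were detected on all 11 arrays, at low signals. As measured by the scanner, miR-133a-3p gave 5.97 and 3.23 units at day 0. It gave 8.63, 4.63 and 8.88 at day 3 and 11.2, 3.64 and 6.58 at day 7. At day 30 its signals were 27.7, 15.1 and 17.2, above every array of the other days. The scanner's own error put each of these signals at 3.09 to 9.11 times its error.

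miR-133b-3p, the isoform shared with the miR-206 locus, was likewise brightest at day 30. Its signals were 10.5 and 5.89 at day 0, and 15.6, 8.13 and 18.04 at day 3. They were 24.2, 5.70 and 11.6 at day 7 and 51.1, 29.3 and 37.8 at day 30. The 3 day 30 arrays again stood above all others, while days 0, 3 and 7 overlapped.

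miR-1a-3p was detected on 6 of 11 arrays. It was undetected on both day 0 arrays (1.48 and 1.40 units, the level of background). At day 3 it was detected in replicates 1 and 3 (12.4 and 15.95) and undetected in replicate 2 (1.83). At day 7 it was detected in replicate 1 (3.31) and undetected in replicates 2 and 3 (1.22 and 1.42). At day 30 it was detected in all 3 (99.5, 32.0 and 39.8). Its detected arrays were thus those of day 30, the brighter pair of day 3 and the brightest of day 7.

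**Figure D1:**
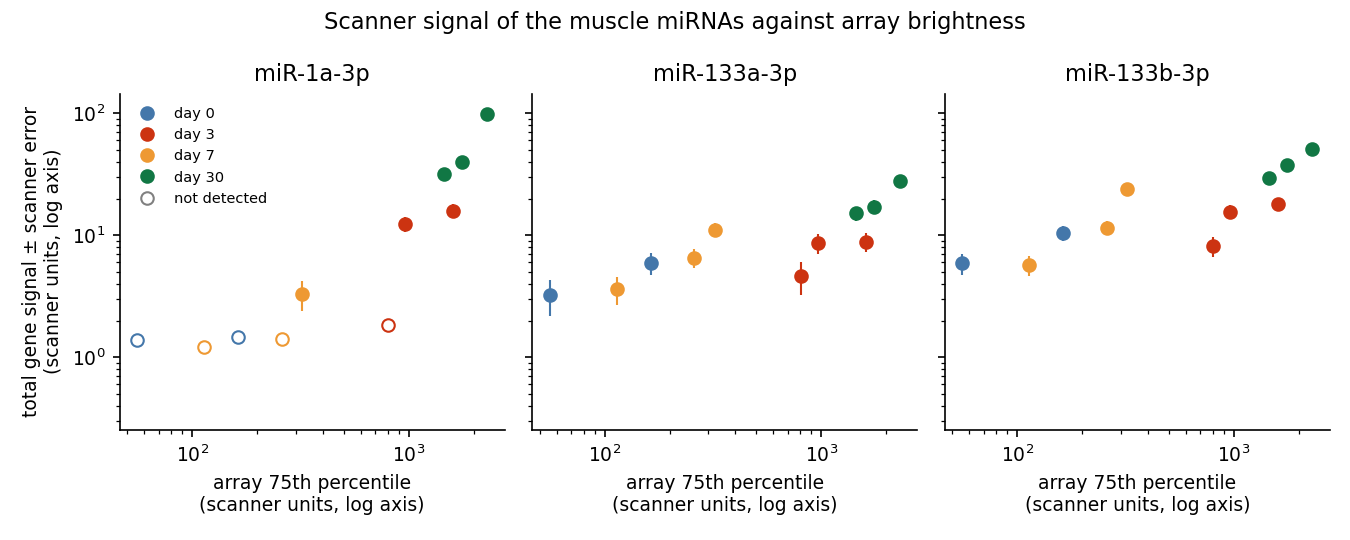
Total gene signal with the scanner's error (vertical axis, scanner units, log scale) of each muscle miRNA against the 75th percentile of its array (horizontal axis, scanner units, log scale), 1 point per array, coloured by day and open where the miRNA was not detected. The day 30 arrays are highest in all panels, and the day 3 signals of miR-133a-3p and miR-133b-3p lie within the range of the dimmer day 0 and day 7 arrays.

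Relative to the rest of the miRNA signal, the picture turned. Each signal was divided by its array's 75th percentile and logged (base 2). For miR-133a-3p this gave -4.77 and -4.11 at day 0, -6.80, -7.44 and -7.50 at day 3, -4.85, -4.97 and -5.30 at day 7 and -6.38, -6.59 and -6.67 at day 30. All 4 groups stood apart, and the order from high to low was day 0, day 7, day 30 and day 3. The group means were -4.44 ± 0.47 (SD, n = 2), -5.04 ± 0.23 (n = 3), -6.51 ± 0.18 (n = 2) and -7.25 ± 0.39 (n = 3) in that order. The neighbours day 0 and day 7, and day 30 and day 3, did not differ beyond the test's threshold.

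miR-133b-3p had the same order. Its values were -3.96 and -3.24 at day 0, -3.74, -4.32 and -4.49 at day 7, -5.50, -5.63 and -5.54 at day 30 and -5.95, -6.63 and -6.48 at day 3. Day 0 and day 7 overlapped, and the other groups stood apart. Its means were -3.60 ± 0.51, -4.18 ± 0.39, -5.54 ± 0.06 and -6.35 ± 0.36 in that order.

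miR-1a-3p had another order. Where detected, it measured -6.28 and -6.65 at day 3, -6.61 at day 7 and -4.53, -5.51 and -5.46 at day 30. The day 30 arrays were highest among detected values. On undetected arrays the scaled value is that of background, which lies higher on dim arrays (-6.78 and -5.32 at day 0) than on the brighter array of day 3 replicate 2 (-8.78, raised to the floor of -8.53), so these have no order. In a limma F test over the 4 groups, adjusted over all 369 tested miRNAs, miR-133a-3p (adjusted p = 0.000632), miR-133b-3p (adjusted p = 0.000837) and miR-1a-3p (adjusted p = 0.0467) passed at 0.05, as did 78.9% of all tested miRNAs. The test of miR-1a-3p took the background values of its undetected arrays as measurements, so its pass rests partly on them.

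**Figure D2:**
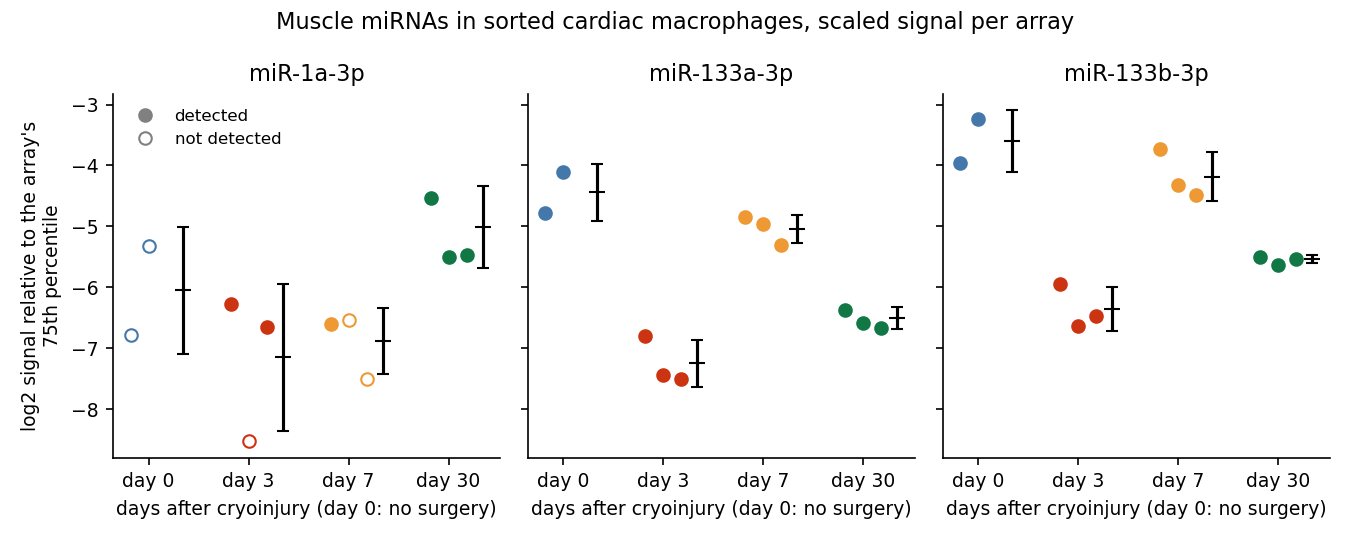
Log2 signal relative to the array's 75th percentile (vertical axis) of each muscle miRNA by day, 1 point per array, open where not detected; black bars are the mean ± SD over samples, with day 30 replicates 2 and 3 counted as 1. miR-133a-3p and miR-133b-3p are highest at days 0 and 7, whereas miR-1a-3p is highest among detected values at day 30.

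Ly6Chigh macrophages of day 3 (n = 3) carried less miR-133 than Ly6Clow macrophages of the uninjured heart (n = 2), relative to the array's 75th percentile, though not without scaling or against the dmr controls, and not past the threshold with the percentile over every miRNA. miR-133a-3p fell by 2.81 on the log2 scale (SE 0.43, limma adjusted p = 0.000672) and miR-133b-3p by 2.75 (SE 0.44, adjusted p = 0.000881), which are 6.99-fold and 6.72-fold. miR-1a-3p, undetected at day 0, gives no fold here. In this comparison 55.3% of all tested miRNAs passed, 39.0% as lower and 16.3% as higher. Of the 126 miRNAs detected throughout, like both miR-133 forms, 54.8% passed. The groups stood apart for both miR-133 forms and for 65.6% of all tested miRNAs. Over those 126 the median change was -0.77. Both miR-133 changes exceeded that shift, by -2.04 and -1.98. Within slide 1 miR-133a-3p changed by -2.38 and within slide 2 by -3.33, miR-133b-3p by -2.25 and -3.39. The falls were called under 6 of 9 other scalings. Among these were both leukocyte scales, whose references miR-142a-3p and miR-223-3p were themselves called higher here (2.82 and 1.51). They were not with the percentile over every miRNA (-0.26 and -0.21, adjusted p = 0.741 and 0.861), and the direction flipped without scaling and with the dmr controls (0.69 and 0.18 for miR-133a-3p, 0.75 and 0.23 for miR-133b-3p, none of them called). With array brightness as a covariate the changes were -2.12 and -2.46 and no longer passed (limma adjusted p = 0.0769 and 0.0711). Brightness separates day 0 from day 3, so this fit can hardly part it from the groups (SE 0.77 and 0.85). Of all tested miRNAs 68 passed there, against 204 without the covariate. The lost calls are therefore not particular to miR-133.

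Ly6Clow macrophages of day 7 (n = 3) and of the uninjured heart (n = 2) belong to the same sorted population. No change in a member passed the test, while 3.79% of all tested miRNAs did (3.25% higher and 0.542% lower), or 2.38% of the 126 detected throughout. The groups stood apart for miR-133a-3p, as for 19.5% of all tested miRNAs, and overlapped for the other 2 members. miR-133a-3p differed by -0.60 (95% interval -1.53 to 0.34, limma adjusted p = 0.339) and miR-133b-3p by -0.58 (interval -1.54 to 0.38, adjusted p = 0.375). These intervals leave room for a fall of more than 2-fold and for a small rise. The sign turned positive with the dmr controls, with the percentile taken over all miRNAs on the array and without scaling. With quantile normalization miR-133a-3p passed as lower (-0.97, adjusted p = 0.0298). miR-1a-3p, detected on 1 of 3 day 7 arrays and on neither day 0 array, gives no fold.

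From day 3 to day 7, miR-133 rose relative to the 75th percentile, a call lost with the dmr controls, with the percentile over every miRNA and without scaling. miR-133a-3p was 2.21 higher at day 7 (SE 0.39, limma adjusted p = 0.00177, 4.62-fold) and miR-133b-3p 2.17 higher (SE 0.40, adjusted p = 0.00222, 4.50-fold), with n = 3 in both groups. Of all tested miRNAs 37.1% passed, 21.1% as higher and 16.0% as lower, around a median change of 0.63. Among the 126 detected throughout, 49.2% passed. Both forms stood apart between the groups, as did 64.2% of all tested miRNAs. Within the slides the changes were 2.07 and 2.48 for miR-133a-3p and 2.10 and 2.31 for miR-133b-3p. They turned to -0.14 and -0.17 without scaling, and were called higher under 6 of the 9 other scalings. Among these were both leukocyte scales, whose references miR-142a-3p and miR-223-3p were themselves called lower here (-2.74 and -2.35). The percentile over every miRNA gave 0.99 and 0.95 (adjusted p = 0.137 and 0.217) and the dmr controls 0.40 and 0.36 (adjusted p = 0.359 and 0.52). With brightness as a covariate they were 1.75 and 1.98 and missed the threshold (limma adjusted p = 0.0555 and 0.0541). Brightness separates these groups too, and 58 of all tested miRNAs passed in that fit, against 137 without the covariate. Of 5 detected leukocyte miRNAs, 3 fell and 1 rose, with a median change of -2.35 against 0.61 over all tested miRNAs. Among those that fell, miR-142a-5p was detected on only 1 day 7 array. miR-142a-3p, made in blood cells, fell by 2.74 (limma adjusted p = 0.00201), while miR-146a-5p, induced by NF-kB signalling, rose by 3.63 (adjusted p = 0.00125). miR-1a-3p, detected on 1 of 3 day 7 and 2 of 3 day 3 arrays, differed by 0.27 (interval -1.06 to 1.60, adjusted p = 0.712), and its sign turned without day 3 replicate 2 (-0.42). Within the slides it changed by -0.60 and 1.99.

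At day 30 (n = 2), Ly6Clow macrophages had more miR-1a-3p than the Ly6Chigh macrophages of day 3 (n = 3). The change was 2.14 (SE 0.69, limma adjusted p = 0.0343, 4.42-fold), with all day 30 arrays above all day 3 arrays. The day 3 mean holds the floor for replicate 2, which was undetected, so the size of this change depends on that floor. The groups stood apart for all 3 members, as for 74.5% of all tested miRNAs. Of all tested miRNAs 30.9% passed, 9.76% as higher and 21.1% as lower, and the median change was -0.49. Of the 126 detected throughout, 34.1% passed. miR-133a-3p was 0.74 higher (interval -0.19 to 1.68, adjusted p = 0.203) and miR-133b-3p 0.81 higher (interval -0.15 to 1.77, adjusted p = 0.182), without passing. This was the 1 comparison in which every member kept its sign under all 9 other scalings. The miR-1a-3p change ranged there from 1.71 to 3.17 and passed under 7 of them, failing with both leukocyte scalings. The miR-133a-3p and miR-133b-3p changes ranged from 0.31 to 1.68 and from 0.38 to 1.75 and passed under 4. The miR-1a-3p call was lost without day 3 replicate 2 (1.46, limma adjusted p = 0.128) and without day 3 replicate 3 (2.23, adjusted p = 0.0514). It was lost too without day 30 replicate 1, which leaves 1 sample in that group (1.56). It was also lost in a fit of only these groups (adjusted p = 0.0982). Within the slides miR-1a-3p changed by 1.93 and 3.05, miR-133a-3p by 0.77 and 0.81 and miR-133b-3p by 0.72 and 1.05.

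Between day 7 (n = 3) and day 30 (n = 2), both Ly6Clow, miR-1a-3p rose and miR-133 fell relative to the 75th percentile, each with its sign turned under some other scalings. miR-1a-3p rose by 1.88 (SE 0.69, limma adjusted p = 0.039, 3.68-fold), from detection on 1 of 3 arrays to detection on all 3, so that its day 7 mean holds background values. miR-133a-3p fell by 1.46 (SE 0.43, adjusted p = 0.0143) and miR-133b-3p by 1.36 (SE 0.44, adjusted p = 0.0237). Of all tested miRNAs 47.7% passed, 34.1% as lower and 13.6% as higher, around a median of -0.57. Of the 126 detected throughout, 60.3% passed. All 3 members stood apart between the groups, as did 71.3% of all tested miRNAs. The miR-133 falls turned into rises without scaling (1.71 and 1.82, both called) and with the dmr controls (1.28 and 1.39, both called). The percentile taken over every miRNA on the array gave 0.16 and 0.26, not called. With brightness as a covariate no member passed (2.38, -0.84 and -1.10). Brightness separates day 7 from day 30, and 13 of all tested miRNAs passed in that fit, against 176 without the covariate. The miR-1a-3p rise turned negative with the 3 and with the 2 leukocyte miRNAs as scale (-1.22 and -0.47). Of these references, miR-142a-3p and miR-223-3p were themselves called higher at day 30 (3.55 and 1.15), which lowers any change scaled to them. Within the slides the changes were 2.53 and 1.06 for miR-1a-3p, -1.30 and -1.66 for miR-133a-3p and -1.38 and -1.27 for miR-133b-3p. All 3 calls were lost without day 30 replicate 1, which leaves 1 sample in that group. The changes were then 1.40 for miR-1a-3p, -1.59 for miR-133a-3p and -1.40 for miR-133b-3p, so the miR-133 falls were no smaller. The miR-1a-3p call was also lost without day 7 replicate 2 or 3 (adjusted p = 0.0552 and 0.133) and with the replicate block (1.85, adjusted p = 0.0551), and that of miR-133b-3p without day 7 replicate 1 (adjusted p = 0.0697).

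Against the uninjured heart (n = 2), the day 30 macrophages (n = 2) had less miR-133 relative to the 75th percentile, and more without scaling. miR-133a-3p fell by 2.06 (SE 0.47, limma adjusted p = 0.00536) and miR-133b-3p by 1.94 (SE 0.49, adjusted p = 0.00685). Here 56.4% of all tested miRNAs passed, 47.4% as lower and 8.94% as higher, and the median change was -1.06. Of the 126 detected throughout, 55.6% passed. Both miR-133 forms stood apart between the groups, as did 78.3% of all tested miRNAs. The falls became rises without scaling (2.27 and 2.39, both called) and with the dmr controls (1.86 and 1.99, both called). The percentile taken over every miRNA on the array gave 0.88 and 1.01, not called. With brightness as a covariate the changes were -1.21 and -1.58, not called. Brightness separates day 0 from day 30, and 0 of all tested miRNAs passed in that fit, against 208 without the covariate. Within the slides miR-133a-3p changed by -1.61 and -2.52 and miR-133b-3p by -1.53 and -2.34. miR-133b-3p was no longer called without day 30 replicate 1, which leaves 1 sample in that group (-1.98). The day 30 mean of miR-1a-3p (-5.01) lay 1.82-fold above the lowest detected signal of any miRNA on the day 0 arrays (-5.87, measured background -6.05). The faintest detected miRNA need not share its detection limit with miR-1a-3p, so this ratio is not a firm lower bound. That lowest signal averages -6.63 and -5.12, the second of which lies above day 30 replicates 2 and 3, and the groups overlapped. The ratio was 1.08-fold without day 0 replicate 1 and 3.08-fold without day 0 replicate 2. The fitted difference takes the day 0 background as a measurement under every scaling, so it is not a measured fold. It did not pass (limma adjusted p = 0.247), while 7 of 9 other scalings called it as higher and the leukocyte scalings turned it to -1.72 and -0.93. Of their references, miR-142a-3p was itself called higher at day 30 (3.63), and miR-223-3p was not (0.32). Within the slides miR-1a-3p differed by 2.25 and -0.17. Each group serves in 3 of the 6 comparisons, so these share samples and are not independent.

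**Figure D3:**
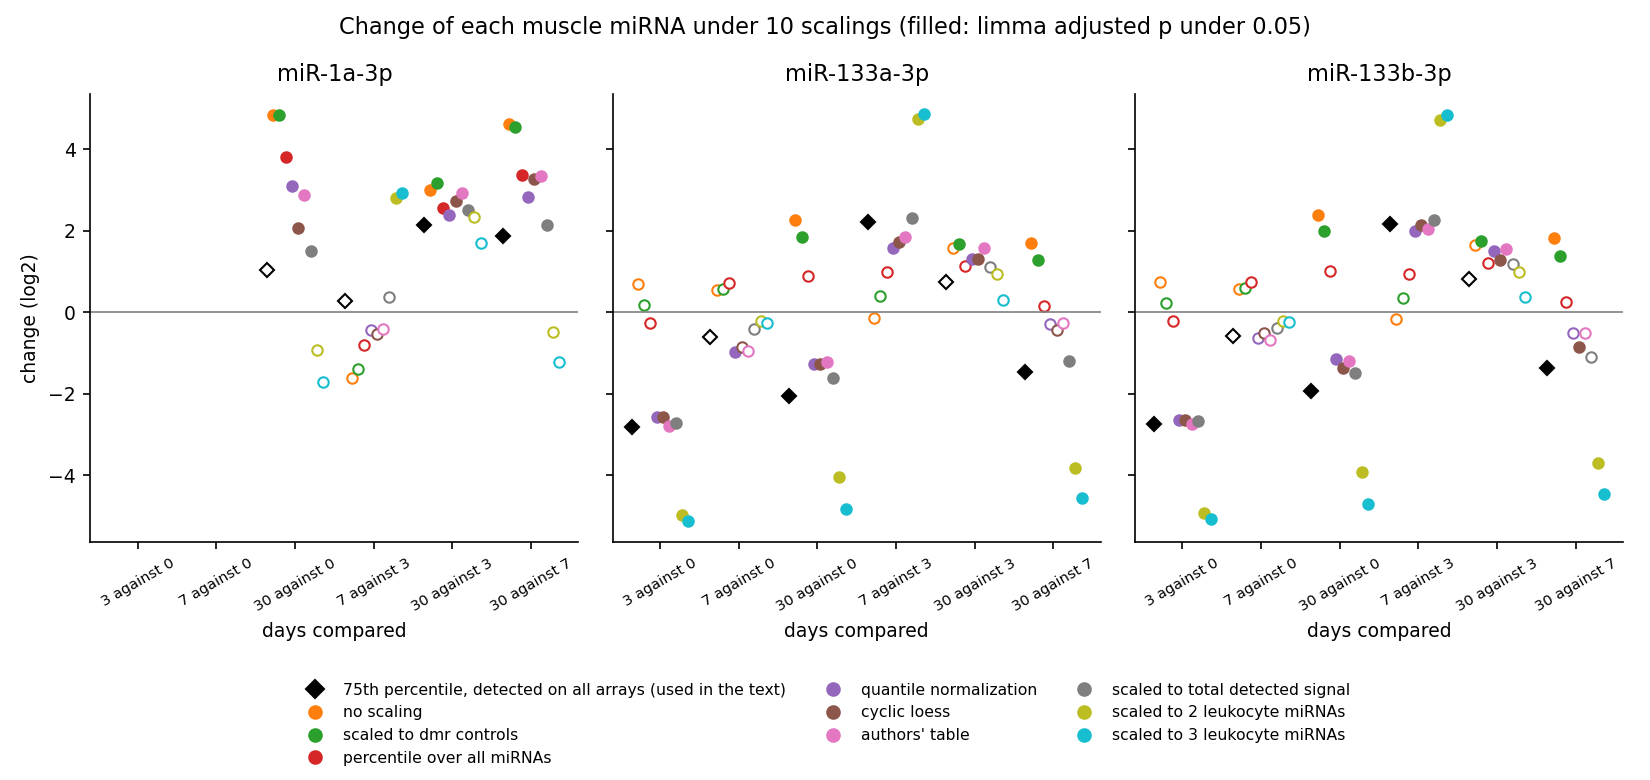
Change (vertical axis, log2) of each muscle miRNA in the 6 comparisons of days (horizontal axis) under 10 scalings, filled where the limma adjusted p was under 0.05; miR-1a-3p is not drawn for days 3 and 7 against day 0. The points lie on 1 side of 0 for all members at day 30 against day 3, and on both sides in the other comparisons drawn. Those of miR-1a-3p at day 30 against day 0 set detected signals against background.

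Differences between members within an array do not depend on a scaling constant. The log2 signal of miR-133b-3p exceeded that of miR-133a-3p by 0.65 to 1.14 on the 11 arrays, a measure of probes and not of amounts. Its group means were 0.84 ± 0.04 (SD, n = 2) at day 0, 0.90 ± 0.11 (n = 3) at day 3, 0.86 ± 0.24 (n = 3) at day 7 and 0.97 ± 0.11 (n = 2) at day 30. The largest difference between groups, 0.13 for day 30 against day 0, had an exact permutation p of 0.333, the smallest its 6 splits allow. Meanwhile miR-133a-3p itself spanned 8.58-fold in signal over the arrays and miR-133b-3p 8.95-fold.

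The difference between miR-1a-3p and miR-133a-3p varied more. The log2 signal of miR-1a-3p minus that of miR-133a-3p was 1.85, 1.08 and 1.21 at day 30 and 0.52 and 0.84 in day 3 replicates 1 and 3. It was -1.75 in day 7 replicate 1. On the arrays where miR-1a-3p was undetected, the difference was set by background and lay between -2.21 and -1.21. Since such values enter the means of days 0, 3 and 7, no difference between groups is given. The smallest exact two-sided permutation p among the 6 was 0.1 (adjusted p = 0.6 over 12 such tests). No p under 0.1 could be reached with so few samples, and the tests hold the background values, so they cannot decide whether groups differ.

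**Figure D4:**
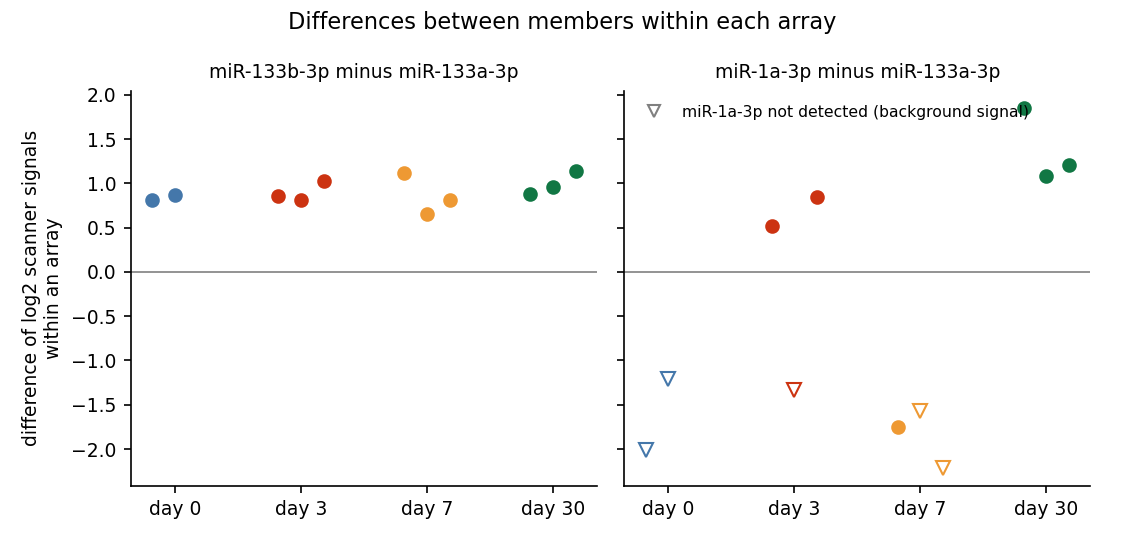
Difference of log2 scanner signals within each array (vertical axis) by day, for miR-133b-3p minus miR-133a-3p (left) and miR-1a-3p minus miR-133a-3p (right); open triangles mark arrays where miR-1a-3p was not detected. The left panel stays between 0.65 and 1.14, while the right one spans from -2.21 to 1.85.

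As a share of the summed signal of detected miRNAs, the members together held 0.0536% to 0.0666% on day 0 arrays and 0.0425% to 0.0549% on those of day 7. They held 0.0328% to 0.0492% in the day 30 group and 0.00726% to 0.0178% in the day 3 group. The day 3 arrays lay under all others. At day 30 miR-1a-3p alone held 0.0137% to 0.0275%. Array signals are not proportional to molecules across probes, so these shares describe signal only.

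Of 14 further muscle miRNAs on the array, 13 were detected on no array (signals 0.968 to 1.98 units). These were the other arms of miR-1a and miR-133, both arms of miR-1b, of the skeletal muscle miR-206, of miR-208b and of miR-499, and miR-208a-3p. The exception was miR-208a-5p, from the gene of the cardiac alpha myosin heavy chain. It was undetected on all 8 arrays of days 0, 3 and 7 (1.20 to 1.97 units) and detected on all 3 day 30 arrays (12.2, 10.3 and 11.9). It passed the filter only through the day 30 arrays, so no test or fold is given for it. Relative to the 75th percentile it measured -7.56, -7.14 and -7.20 there. The lowest detected signal of any miRNA lay under all of these on the 3 day 3 arrays (-9.54 to -8.53) and on day 7 replicate 1 (-7.89). It lay under some of them on day 7 replicate 3 (-7.31) and above them all on day 7 replicate 2 (-6.35) and both day 0 arrays (-6.63 and -5.12). The faintest detected miRNA need not share its limit with miR-208a-5p, which may be higher.

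Markers of other cells were read beside the members. The leukocyte list of 6 had 5 detected members, of which 4 rose from day 0 to day 3 and 1, miR-146a-5p, fell by 4.59 (limma adjusted p = 0.000357). Of all tested miRNAs 16.3% rose there, and the median change was -0.79 against 1.60 over the list. That 1.60 is the value of miR-155-5p. Like miR-142a-5p, it was detected on neither day 0 array, so both rises are set against background. From day 7 to day 30, 4 of the 5 rose (median change 1.70, against -0.68 over all tested miRNAs, of which 13.6% rose). Among them, miR-142a-5p was detected on only 1 day 7 array. The list's share of detected signal was 6.72% to 8.91% in day 3 cells and 5.85% to 7.15% in day 30 cells. It was 1.53% to 5.56% in day 0 cells and 1.45% to 2.49% in day 7 cells, where miR-133 was highest relative to the 75th percentile. The fibroblast and smooth muscle list (4 of 6 detected, miR-145a at neither arm) held at most 0.0206% in the day 0 group, 0.0376% to 0.0626% in the day 3 group and 0.101% to 0.221% in the day 7 group, with 0.122% to 0.135% in that of day 30. The endothelial miR-126a pair held 0.0428% to 0.137% at day 0 and 0.140% to 0.202% after injury. The erythroid miR-451a and miR-486a-5p (miR-144-3p was undetected) were at 0 at day 0 and held up to 0.0687% at day 30. The entries miR-709, miR-690 and miR-2137, which may read fragments of longer RNAs and served as a gauge of RNA quality, held 2.73% to 3.82% on the day 0 arrays and 1.03% to 2.19% on those of day 7. On the brighter arrays they held 0.409% to 0.496% (day 3) and 0.507% to 0.523% (day 30). All 3 were called lower in the 3 comparisons in which miR-133 was, and 2 of 3 higher where it rose. In those comparisons 34.1% to 47.4% of all tested miRNAs were lower, and 21.1% higher. They went apart at day 30 against day 3, where 2 of the 3 entries were called lower and none higher. Of all tested miRNAs 21.1% were lower there and 9.76% higher, while miR-133a-3p and miR-133b-3p were 0.74 and 0.81 higher without passing. The part of these cells, of RNA quality and of array brightness in the members' changes was not tested.

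miRNAs that are abundant in heart but not specific to muscle were read as a further list. Of the 9 (miR-22, miR-24, miR-26a, 5 members of miR-30 and miR-378a-3p), all were detected and 5 were higher at day 30 than at day 7, with none lower, in the comparison in which miR-133 fell. The list's median change was 1.21 there, against -0.68 over all tested miRNAs, of which 13.6% were higher and 34.1% lower. At day 3 against day 0, 2 were higher and 2 lower (median 0.23 against -0.79), beside 16.3% and 39.0% of all tested miRNAs. At day 30 against day 0, 2 were higher and 0 lower (median 0.615 against -1.37), beside 8.94% and 47.4%. miR-133 was called lower in these comparisons as well.

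Among the 124 miRNAs other than members that were detected on all arrays, the profile most like that of miR-133a-3p over the 10 samples was that of miR-466i-3p (Pearson r = 0.95). It was followed by miR-466f-3p (0.94), miR-669p-3p (0.94), miR-467f (0.93), the fragment-like miR-709 (0.93) and miR-125a-5p (0.93). miR-133b-3p stood above all of them (0.99), and miR-1a-3p far below (0.20). The median over the 124 was 0.48. These samples share their groups and their brightness, which itself correlated with miR-133a-3p at -0.88 and with the first 5 of these miRNAs at -0.95 to -0.98. In deviations from the group means, which leave out the differences between days, miR-133b-3p (0.90), miR-466i-3p (0.78) and miR-1a-3p (0.76) came out with the highest r of those named, against a median of 0.33. Both r values of miR-1a-3p include arrays that did not detect it, among them the whole day 0 group. There its value is background divided by brightness, so these r values do not show how miR-1a-3p varied with miR-133a-3p.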

How the data were processed

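The labels' protocols give a labelling with Cy3 of miRNA from 100 ng of RNA, and 2 or 3 independent biological replicates. Scanning software was Agilent Feature Extraction, per the submitters' processing notes, which name no version. Per the file headers, the 11 deposited scanner files give each miRNA's gene-level intensity, an error for it and a detection flag. The authors' deposited table holds log2 values of 317 miRNAs, all detected on at least 4 arrays. Its scale is relative, since the median of every column was 4.46. Single values recur between columns, such as 4.90 for miR-133a-3p on both day 0 arrays, as quantile normalization would give.

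Members were rows with their names among 1247 miRNAs; 21 control features were left out. Each array was scaled to the 75th percentile of 126 miRNAs that every array detected, and scaled signals were raised to a floor (0.00271, log2 -8.53) and logged. The 369 miRNAs detected on at least 2 arrays were fitted in limma 3.58.1 (R 4.3.3, jsonlite 2.0.0), with 4 group means and 6 residual degrees of freedom. Calls are Benjamini-Hochberg adjusted p under 0.05 within a comparison. Groups of 2 and 3 arrays limit the precision of every value. Where miR-1a-3p was undetected on every array of a group, it was set against the lowest detected signal of any miRNA on each array. That signal may lie under the detection limit of miR-1a-3p itself. Slides come from the deposited array names. The fit was tested on simulated data.

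The members, lists and tests were chosen with earlier results of these data known. Named miRNAs are the members, detected miRNAs of the further muscle list, 3 leukocyte miRNAs and the 6 miRNAs most correlated with miR-133a-3p. Other miRNAs are named as members of the marker lists, and miR-146a-5p was singled out after its values were seen. Alternatives were 15 planned settings, leaving out each array, and 2 added after seeing the data (the total detected signal, and miR-142a-3p with miR-223-3p, as scale). The scale of 3 leukocyte miRNAs adds miR-142a-5p, detected on neither day 0 array and on 1 of 3 day 7 arrays, so it partly holds background. The leukocyte references changed between groups themselves, so these scales are not neutral. Both leukocyte scales share miR-142a-3p and miR-223-3p, and the authors' deposited table may overlap with quantile normalization. Counts over the 9 other scalings are therefore not counts of independent checks.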

Additional observations from a re-analysis of the deposited data

How the results depend on the processing

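Scaling decided most directions. Without scaling, the changes of miR-133a-3p were 0.69 (day 3 against day 0), 0.55 (day 7 against day 0), 2.27 (day 30 against day 0), -0.14 (day 7 against day 3) and 1.71 (day 30 against day 7). Those of miR-133b-3p were 0.75, 0.57, 2.39, -0.17 and 1.82 in the same order. With the percentile over all miRNAs they were -0.26, 0.72, 0.88, 0.99 and 0.16, and -0.21, 0.74, 1.01, 0.95 and 0.26. With the dmr controls they were 0.18, 0.58, 1.86, 0.40 and 1.28, and 0.23, 0.60, 1.99, 0.36 and 1.39. At day 30 against day 3 both passed with the dmr controls (1.68 and 1.75), quantile normalization (1.30 and 1.51), cyclic loess (1.31 and 1.28) and the authors' deposited table (1.58 and 1.55). At day 30 against day 7 they lost their calls with quantile normalization (-0.29 and -0.50), the authors' deposited table (-0.27 and -0.50), no filter (-1.46 and -1.36) and the highest floor (-0.14 and -0.93). There miR-133a-3p also lost its call with cyclic loess (-0.42) and miR-133b-3p with the total signal as scale (-1.09). With quantile normalization miR-133a-3p passed at day 7 against day 0 (-0.97). The cause of these changes was not tested.

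Both day 0 arrays left miR-1a-3p undetected, so its changes at day 30 against day 0 set detected signals against background. They are not measured folds. For miR-1a-3p at day 30 against day 0, the change passed without scaling (4.84), with the all-miRNA percentile (3.80), quantile normalization (3.10), cyclic loess (2.07), the dmr controls (4.83), the total signal (1.501) and the authors' deposited table (2.89). It turned to -1.72 and -0.93 with 3 and 2 leukocyte miRNAs as scale. At day 7 against day 3 it was -1.62, -0.81, -0.43, -0.54 and -1.39 under the first 5 of these settings, -0.42 in the authors' deposited table, -0.10 with brightness as a covariate, and 2.93 and 2.81 with the leukocyte miRNAs. These gave 1.71 and 2.34 at day 30 against day 3 and -1.22 and -0.47 at day 30 against day 7.

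With brightness as a covariate the miR-133a-3p changes at day 3 against day 0, day 30 against day 0, day 7 against day 3 and day 30 against day 7 were -2.12, -1.21, 1.75 and -0.84, and those of miR-133b-3p -2.46, -1.58, 1.98 and -1.10, none called. The last comparison of miR-1a-3p (2.38) was lost too. Brightness separates days 0 and 7 from days 3 and 30, so in these comparisons the fit can hardly part brightness from day. The highest floor lies above most values of days 3 and 30 and left 0.29 for miR-1a-3p at day 30 against days 3 and 7, and -0.67 and 0.14 for miR-133a-3p at day 30 against day 0 and day 7 against day 3. Fitting only the groups compared ended the call of miR-1a-3p at day 30 against day 3 (2.14).

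With 1 array left out at a time, miR-1a-3p ranged from 0.31 to 1.78 at day 30 against day 0, -0.42 to 0.61 at day 7 against day 3, 1.46 to 2.42 at day 30 against day 3 and 1.40 to 2.05 at day 30 against day 7. miR-133a-3p ranged from -1.60 to -1.37 at day 30 against day 7. miR-133b-3p ranged from -1.51 to -1.14 there and from -2.30 to -1.58 at day 30 against day 0. No other call of a member changed. A lone sample left in a group was assumed to vary like the others.

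Replicate numbers were not used as pairs in the main fit. Deviations of same-numbered samples correlated at a median of 0.12 (-0.18 to 0.50, 13 pairs), those of different numbers at -0.10 (-0.50 to 0.44, 24 pairs). The median was 0.12 for samples on the same slide and -0.12 for those on the other slide. Replicate 2 lay on slide 2 throughout, and whether number or slide underlies these values was not tested. The filter on detection on all arrays left no value for miR-1a-3p. The replicate block, with the averaged day 30 sample as number 2, moved 1 call, miR-1a-3p at day 30 against day 7 (1.85). The slide as a block and 11 separate arrays changed no call of a member.

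Over these settings the number of all miRNAs called ran from 68 (brightness) to 1110 (no filter, where background sets most values) against 204 at day 3 against day 0, and from 0 to 1011 against 14 at day 7 against day 0. It ran from 0 to 1109 against 208 at day 30 against day 0, 58 to 790 against 137 at day 7 against day 3, 24 to 201 against 114 at day 30 against day 3 and 13 to 332 against 176 at day 30 against day 7. With 1 array left out, the counts were 128 to 240, 0 to 168, 51 to 264, 80 to 220, 27 to 164 and 100 to 213. The limits of these data are 2 or 3 samples a group, brightness that separates days 0 and 7 from days 3 and 30, miR-133 signals of 3.09 to 10.5 times the scanner's error, and a miR-1a-3p that 5 arrays did not detect.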
